A study of Homo sapiens with 18 samples.

Results

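The comparison described here is the change of the copanlisib effect between 8 h and 4 h in HAIR-M cells. HAIR-M is a human line of lymphoma B cells, given in the labels as MZL, that is marginal zone lymphoma. RNA sequencing covered cells given 5 nM copanlisib for 8 h, DMSO for 8 h, copanlisib for 4 h or DMSO for 4 h, with 3 libraries in each group. These 12 libraries were chosen by time and treatment labels out of 18 in the series, and the other 6 are the same treatments at 12 h. DMSO is the solvent, all groups are the same cell line, and the labels do not say that replicates were separate cultures, so the p-values speak for the variation among these libraries alone, part or all of which may be technical.

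Copanlisib inhibits class I phosphoinositide 3-kinases (PI3K), the lipid kinases that carry signals from the B cell receptor and from growth factor receptors to AKT and mTORC1. When PI3K is active, AKT keeps FOXO transcription factors out of the nucleus and mTORC1 drives ribosome, protein and lipid synthesis, partly through the transcription factor ATF4. The same receptors also start the ERK and NF-kB pathways, whose first targets are immediate early genes such as AP-1 factors and their own inhibitors. Chaperones, made in larger amounts when protein synthesis or unfolding is high, are controlled by heat shock factors.

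For each gene the effect is the log2 fold change of copanlisib over DMSO at one time, and the difference is the effect at 8 h minus the effect at 4 h. A difference above 0 therefore means a weaker reduction or a stronger increase at 8 h. It was tested with edgeR over all 16018 genes that passed the filter on low counts, at a Benjamini-Hochberg adjusted p under 0.05. Levels are depth-scaled read counts (CPM), listed in the order of replicates 1, 2 and 3.

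Promoter stretches are shown for 6 genes on which the results below turn, because members of 2 of the gene groups carry short motifs of the factors these groups are named for. The sequences are from RefSeq (GRCh38.p14), read 5′ to 3′ on the gene's strand and ending before the start of transcription, and capitals mark the motif. The NF-kB motif searched, on both strands, was GGG and TTTCC with 2 free bases between them, and it lies in 1.73% of 35116 RefSeq promoters (the 250 bases before the start). The heat shock element searched, on both strands, was GAA, TTC and GAA with 2 free bases between neighbours, which 0.441% of the same windows hold. LTB encodes lymphotoxin beta, a membrane-bound cytokine of lymphocytes, and NFKBIA encodes the NF-kB inhibitor IkB alpha. HSPA8, HSP90AA1, HSP90AB1 and HSPD1 encode the chaperones HSC70, HSP90 alpha, HSP90 beta and HSP60.
LTB, chr6:31582447-31582566, minus strand: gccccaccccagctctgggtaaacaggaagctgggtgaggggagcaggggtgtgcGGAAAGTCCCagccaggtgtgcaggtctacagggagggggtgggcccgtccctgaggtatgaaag
NFKBIA, chr14:35404766-35404885, minus strand: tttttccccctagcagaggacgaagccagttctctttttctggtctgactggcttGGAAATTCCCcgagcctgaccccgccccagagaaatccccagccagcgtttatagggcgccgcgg
HSPA8, chr11:123062137-123062256, minus strand: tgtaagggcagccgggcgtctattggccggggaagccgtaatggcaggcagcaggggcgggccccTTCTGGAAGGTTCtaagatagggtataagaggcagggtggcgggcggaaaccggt
HSP90AA1, chr14:102087067-102087186, minus strand: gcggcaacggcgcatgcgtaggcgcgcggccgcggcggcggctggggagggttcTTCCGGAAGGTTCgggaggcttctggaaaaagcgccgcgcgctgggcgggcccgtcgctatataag
HSP90AB1, chr6:44247751-44247870, plus strand: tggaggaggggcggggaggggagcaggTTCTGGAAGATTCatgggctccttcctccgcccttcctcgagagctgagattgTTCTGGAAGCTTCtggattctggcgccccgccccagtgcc
HSPD1, chr2:197499971-197500090, minus strand: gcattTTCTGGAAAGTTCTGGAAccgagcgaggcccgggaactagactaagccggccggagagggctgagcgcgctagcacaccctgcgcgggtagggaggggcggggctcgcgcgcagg
The NF-kB motif starts 86 bases before the start of LTB and 81 before that of NFKBIA. Heat shock elements start 55 bases before the start of HSPA8, 88 before HSP90AA1, 165 and 112 before HSP90AB1, and 245 and 240 before HSPD1, where the pair overlap. Of 24 genes in the chaperone list 22 had a promoter entry and 6 of them held a heat shock element, and of 26 NF-kB targets 22 had an entry and 10 held the NF-kB motif. A match in these windows is a description of letters and not of binding.

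A pair of libraries, copanlisib 4 h replicates 1 and 2, was unlike the rest. They had 8.73% and 5.22% of reads unmapped, where the other 10 had 1.74% to 2.82%. The mitochondrial share of gene reads was 12.4% and 12.6% in them, where the other 10 had 9.07% to 10.1%. Gene reads ranged from 13587017 to 25566761 over the 12 libraries. The difference followed the GC content of genes: with the genes split by GC content into 5 bins of equal size, its median was -0.192 in the lowest bin and 0.33 in the highest. With replicate 3 as the only copanlisib library at 4 h these medians were -0.067 and 0.068, and with replicates 1 and 2 only they were -0.281 and 0.441. The main results below are therefore also given for the fit with replicate 3 alone, called the replicate 3 fit, in which that library is assumed to vary like the other groups. B cell markers were present in all 12 libraries, with CD79A at 337 to 450 CPM and PAX5 at 252 to 437 CPM. The labels' extraction protocol speaks of retinas, but 13 of 16 retina markers were under 1 CPM in all 12 libraries.

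**Figure D1:**
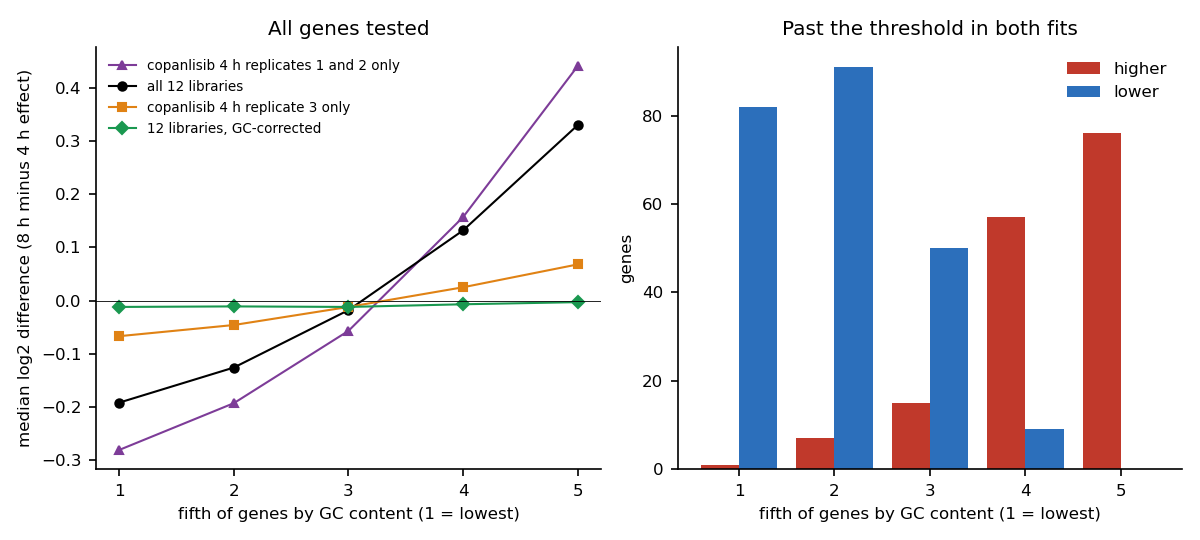
Left, the median log2 difference (effect at 8 h minus effect at 4 h) in each of 5 equal bins of genes by GC content, for 4 fits. It runs between -0.281 and 0.441 with copanlisib 4 h replicates 1 and 2 only, and between -0.067 and 0.068 with replicate 3 only. Right, the number of genes past the threshold in both the 12-library fit and the replicate 3 fit, where 76 of the genes with a higher difference lie in the highest bin and 82 of those with a lower one in the lowest.

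With all 12 libraries the difference was higher than 0 in 881 of 16018 genes (5.5%) and lower in 865 (5.4%). The replicate 3 fit called 172 of 16829 genes higher (1.02%) and 271 lower (1.61%). All 1746 genes called with 12 libraries had the same sign in the replicate 3 fit, which shares 10 of its libraries. Both fits called 156 genes higher (0.974% of 16012 tested in both) and 232 lower (1.45%), 388 in all, which is 22.2% of the calls with 12 libraries and 87.6% of those in the replicate 3 fit. A correction of each library for its GC trend left 442 genes higher (2.76%) and 721 lower (4.5%). Of the 388, 321 also passed after this correction, 124 of them higher and 197 lower. The genes higher in both fits had a median GC content of 57.4% and those lower 42.6%, against 48.1% over all genes tested. With 12 libraries 580 genes were higher and 2 lower in the highest GC bin, and 2 and 435 in the lowest. After GC correction these counts were 109 and 129, and 56 and 122. Genes called in both fits had to pass with 12 libraries, so they were chosen in part by a fit with this GC trend. The part of GC content in the remaining calls was not tested. Leaving out any 1 library other than replicate 1 of DMSO at 4 h moved the 881 by over 1.5 times, between 176 without copanlisib 4 h replicate 2 and 3050 without copanlisib 4 h replicate 3. Of the 156 and 232 genes, leaving out 1 library from the 12-library fit kept 132 to 156 and 171 to 232. These genes were chosen as passing with all 12 libraries, so their retention is partly fixed by that choice. The replicate 3 fit was not repeated with a library left out.

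Most changes were small. Among the genes called in both fits, only 10 with a higher difference and 1 with a lower one reached 2-fold. This limit was set on the fit with all libraries of 4 h and 8 h and not on the replicate 3 fit. The copanlisib effect itself was called in 4724 genes at 8 h (29.5%) and in 5535 at 4 h (34.6%). Among the 156 genes with a higher difference, 57 were reduced at 4 h only, 29 were reduced at both times but less at 8 h, 17 changed sign, 37 were raised at 8 h only and 16 were raised at both times and more at 8 h. Among the 232 with a lower difference, 78 were reduced at 8 h only, 37 were reduced at both times and more at 8 h, 69 were raised at 4 h only, 18 were raised at both times but less at 8 h, and 30 changed sign. With the effects and calls at both times taken from the replicate 3 fit, more of the 156 genes were raised at 8 h only. Fewer of them were reduced at 4 h only, and fewer genes of either set changed sign. The calls at 4 h and at 8 h both differ between the fits, and their parts in these shifts were not tested.

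The DMSO cells also changed with time, and this enters every difference. Between 8 h and 4 h, 1979 genes were higher in DMSO cells (12.4%) and 2226 were lower (13.9%), and in copanlisib cells 5936 differed in either direction (37.1%). Of the 156 genes with a higher difference, 112 fell with time in DMSO cells. In copanlisib cells of the replicate 3 fit, 46 of these 112 fell as well, 62 did not pass and 4 rose. A further 33 rose with time in copanlisib cells while DMSO cells did not pass. Of the 232 genes with a lower difference, 130 rose with time in DMSO cells, and 80 fell in copanlisib cells of the replicate 3 fit while DMSO cells did not pass.

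**Figure D2:**
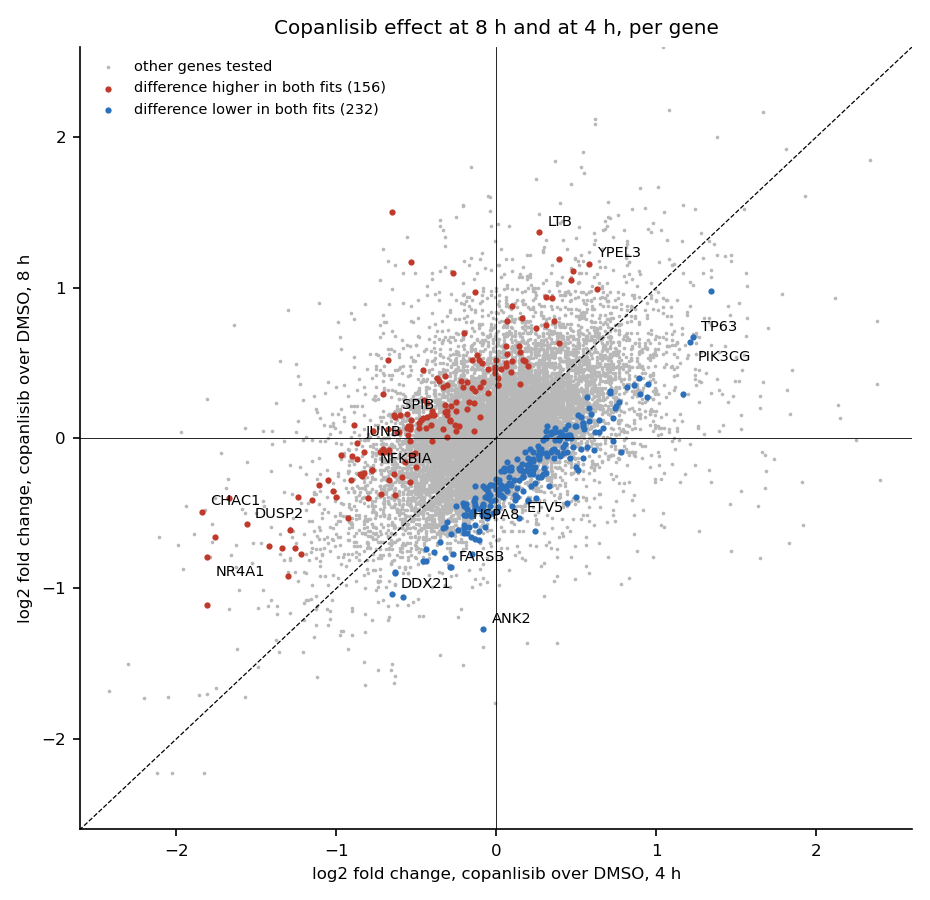
Each point is a gene tested, with its log2 fold change of copanlisib over DMSO at 4 h on the x axis and at 8 h on the y axis (12 libraries), and points on the dashed line have equal effects. The 156 genes in red lie above the line and the 232 in blue below it, with NR4A1 and CHAC1 at -1.81 and -1.84 at 4 h and ANK2 at -1.27 at 8 h. The axes leave out 5 genes.

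The 12 h libraries played no part in choosing these genes, whereas the 4 h and 8 h libraries did. The median effects of the 156 genes with a higher difference were -0.40 at 4 h (-0.21 in the replicate 3 fit), 0.15 at 8 h and 0.10 at 12 h. Those of the 232 genes with a lower one were 0.17 at 4 h (0.08 in the replicate 3 fit), -0.25 at 8 h and -0.24 at 12 h.

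Immediate early genes and ERK feedback genes had many members with a higher difference. Of 30 tested members, 11 were higher and 2 lower with 12 libraries (5.5% and 5.4% of all genes), and 8 and 2 after GC correction (2.76% and 4.5% of all genes). The median difference was 0.33 with 12 libraries and 0.17 in the replicate 3 fit. For the lists below, counts after GC correction have the same 2.76% and 4.5% beside them. Counts in the replicate 3 fit are to be read against that fit's own shares, given above. The 10 that passed in both fits were NR4A1, DUSP2, JUNB, IER2, FOSL1, JUND, DUSP1, ATF3, JUN and DUSP5, of which FOSL1, JUND and DUSP5 lost the call with GC correction (edgeR adjusted p = 0.084, 0.38 and 0.059). The median effect of the list was -0.53 at 8 h and -0.74 at 4 h, or -0.63 at 4 h in the replicate 3 fit. Of the 30 members, 19 were reduced at 8 h and 25 at 4 h, and none was raised at either time. Over all 16018 genes 2639 were reduced and 2085 raised at 8 h, and 3134 were reduced and 2401 raised at 4 h.

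NR4A1, an orphan nuclear receptor switched on within minutes of receptor signals, was at 15.3, 15.4 and 15.9 CPM with copanlisib and at 27.4, 25.6 and 27.6 CPM with DMSO at 8 h. At 4 h it was at 15.5, 15.8 and 21.7 CPM with copanlisib and at 60.4, 61.3 and 63.3 CPM with DMSO. The groups did not overlap at either time, and the narrower gap at 8 h lay mainly on the DMSO side. Its effect was -0.79 ± 0.10 at 8 h and -1.81 ± 0.09 at 4 h, a difference of 1.02 ± 0.13 (SE, edgeR adjusted p = 0.0011), or 0.71 ± 0.11 in the replicate 3 fit.

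DUSP2, a phosphatase that inactivates MAP kinases, was at 148, 151 and 148 CPM with copanlisib and 227, 217 and 221 CPM with DMSO at 8 h, and at 108, 112 and 186 CPM against 393, 386 and 415 CPM at 4 h. Replicate 3 of copanlisib at 4 h stood well above the other two in this gene. The difference was 0.98 ± 0.18 (edgeR adjusted p = 0.0066), and 0.51 ± 0.06 in the replicate 3 fit. JUNB, an AP-1 subunit, had overlapping groups at 8 h, with 101, 97.8 and 101 CPM with copanlisib against 105, 100 and 101 CPM with DMSO. At 4 h it was at 79, 82.4 and 108 CPM against 172, 153 and 168 CPM. Its difference was 0.84 ± 0.12 (edgeR adjusted p = 0.0021), 0.56 ± 0.07 in the replicate 3 fit and 0.42 ± 0.06 after GC correction.

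ATF3, JUN and DUSP1 behaved like JUNB, with an effect at 8 h that did not pass. Their effects were 0.10 ± 0.07, 0.17 ± 0.06 and -0.09 ± 0.07 at 8 h and -0.48 ± 0.07, -0.32 ± 0.06 and -0.68 ± 0.07 at 4 h, with differences in the replicate 3 fit of 0.61 ± 0.11, 0.36 ± 0.08 and 0.48 ± 0.11. FOSL1, another AP-1 subunit, was still reduced at 8 h, by -1.11 ± 0.10 against -1.81 ± 0.09 at 4 h. The survival kinase PIM3, which is no member of the list, had an effect of -0.39 ± 0.13 at 8 h and -1.24 ± 0.13 at 4 h, a difference of 0.85 ± 0.18 (edgeR adjusted p = 0.012) that was 0.39 ± 0.07 in the replicate 3 fit. SOCS1, an inhibitor of cytokine receptor signalling, had a difference of 0.83 ± 0.20 (0.34 ± 0.09 in the replicate 3 fit), but its call was lost without copanlisib 8 h replicate 1 (edgeR adjusted p = 0.058) and without copanlisib 4 h replicate 2 (0.064).

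A pair of ERK pathway genes ran the other way. ETV5, an ETS factor that ERK signalling induces, was at 36.5, 40.9 and 40.2 CPM with copanlisib against 57.2, 54.9 and 57.7 CPM with DMSO at 8 h, and at 71.4, 68.8 and 64 CPM against 59.4, 60.8 and 65.4 CPM at 4 h. The groups were apart at 8 h and overlapped at 4 h. Its difference was -0.67 ± 0.09 (edgeR adjusted p = 0.0011), or -0.59 ± 0.09 in the replicate 3 fit. SPRED2, an inhibitor of RAS-ERK signalling, had an effect of -0.51 ± 0.07 at 8 h and -0.09 ± 0.07 at 4 h, a difference of -0.42 ± 0.10 (edgeR adjusted p = 0.019), or -0.47 ± 0.12 in the replicate 3 fit.

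NF-kB targets moved in the same direction as the immediate early genes. Of 25 tested, 11 were higher and none lower with 12 libraries (5.5% and 5.4% of all genes), 7 and 1 in the replicate 3 fit (1.02% and 1.61% of all genes), and 10 and none after GC correction (2.76% and 4.5% of all genes). The median effect was -0.23 at 8 h and -0.53 at 4 h (-0.40 in the replicate 3 fit). NFKBIA, TRAF1, RELB, ICAM1, CD83 and LTB passed in both fits, and 2 of the 5 with a promoter entry, NFKBIA and LTB, hold the NF-kB motif printed above, as do 8 of 16 tested members that did not pass in both.

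NFKBIA was at 244, 254 and 241 CPM with copanlisib against 289, 280 and 287 CPM with DMSO at 8 h, and at 332, 327 and 363 CPM against 607, 566 and 582 CPM at 4 h. Both treatments were lower at 8 h, and DMSO by more. The difference was 0.57 ± 0.07 (edgeR adjusted p = 0.00071) and 0.46 ± 0.06 in the replicate 3 fit. TRAF1, an adaptor of tumour necrosis factor receptors, had an effect of -0.25 ± 0.06 at 8 h and -0.84 ± 0.06 at 4 h, and its difference in the replicate 3 fit was 0.44 ± 0.06. RELB, an NF-kB subunit, was reduced at 4 h (-0.43 ± 0.08) and raised at 8 h (0.23 ± 0.08). Its difference was 0.66 ± 0.12, but 0.39 ± 0.07 in the replicate 3 fit and 0.22 ± 0.06 after GC correction.

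LTB rose with time in copanlisib cells, whereas NFKBIA and TRAF1 fell with time in both treatments. It was at 18.6, 19.9 and 17.3 CPM with copanlisib against 6.82, 7.33 and 7.59 CPM with DMSO at 8 h, and at 6.95, 7.44 and 9.73 CPM against 7.03, 6.19 and 6.76 CPM at 4 h. The DMSO libraries lay within a narrow range at both times, while every copanlisib library at 8 h was above all others. Its difference was 1.09 ± 0.17 (edgeR adjusted p = 0.0032), or 0.80 ± 0.17 in the replicate 3 fit and 0.71 ± 0.14 after GC correction. The effect was 0.27 ± 0.13 at 4 h, 1.37 ± 0.11 at 8 h and 2.00 ± 0.09 at 12 h.

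**Figure D3:**
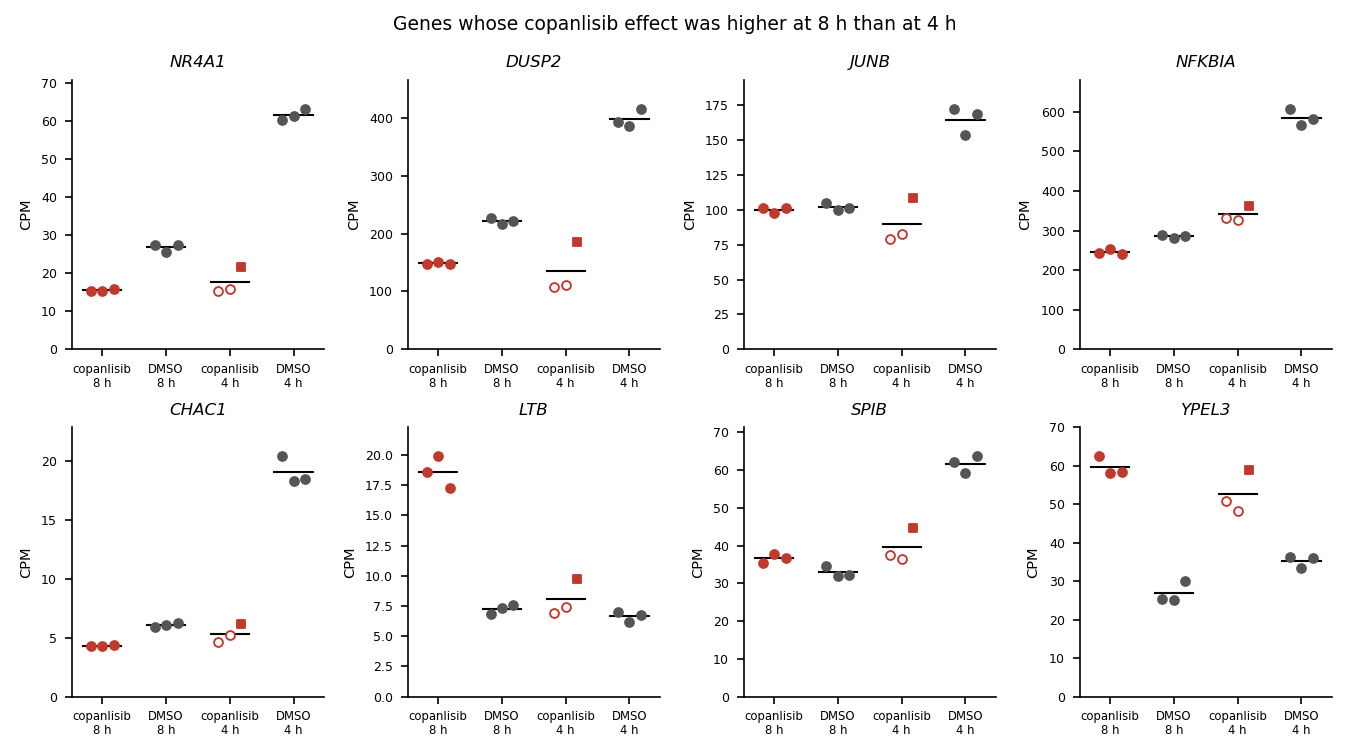
CPM per library for 8 genes with a higher difference in both fits, with copanlisib in red, DMSO in grey, and a bar at the mean of 3 libraries. Open circles are copanlisib 4 h replicates 1 and 2 and the square is replicate 3. In NR4A1, DUSP2, JUNB, NFKBIA, CHAC1 and SPIB the DMSO libraries at 4 h are the highest, while in LTB the copanlisib libraries at 8 h are, at 17.3 to 19.9 CPM.

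Several transcription factors of B cell identity had a higher difference. Of 19 tested members of that list, 7 were higher and 1 lower with 12 libraries (5.5% and 5.4% of all genes), 4 and none in the replicate 3 fit, and 3 and 1 after GC correction. SPIB, an ETS factor of B cells, was at 35.5, 37.9 and 36.6 CPM with copanlisib against 34.7, 31.9 and 32.2 CPM with DMSO at 8 h, and at 37.4, 36.5 and 44.7 CPM against 62.1, 59.3 and 63.7 CPM at 4 h. The groups were apart at both times, with copanlisib lower at 4 h and, by an effect that did not pass, higher at 8 h. The difference was 0.80 ± 0.10 (edgeR adjusted p = 0.0011), 0.60 ± 0.09 in the replicate 3 fit, and the effect was -0.64 ± 0.07 at 4 h, 0.15 ± 0.07 at 8 h and 0.51 ± 0.06 at 12 h.

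With 12 libraries, TCL1A, an AKT coactivator of B cells, and POU2AF1 were raised at 4 h and more at 8 h. The octamer factor OCT2 (POU2F2), whose coactivator is POU2AF1, was level with DMSO at 4 h and above it at 8 h. TCL1A was at 777, 779 and 754 CPM with copanlisib against 534, 504 and 522 CPM with DMSO at 8 h, and at 498, 509 and 593 CPM against 483, 462 and 497 CPM at 4 h. Its difference was 0.42 ± 0.08 (edgeR adjusted p = 0.0075) and 0.25 ± 0.06 in the replicate 3 fit. POU2AF1 had an effect of 0.51 ± 0.05 at 8 h and 0.18 ± 0.05 at 4 h, and a difference of 0.33 ± 0.07, or 0.22 ± 0.05 in the replicate 3 fit. POU2F2 had one of 0.35 ± 0.05 and 0.01 ± 0.05, and lost its call with GC correction (edgeR adjusted p = 0.054). CCR7, a homing receptor of lymphocytes, had an effect of 0.30 ± 0.05 at 8 h and -0.05 ± 0.05 at 4 h, and a difference of 0.34 ± 0.07, but 0.21 ± 0.06 in the replicate 3 fit.

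Markers of other cell types were mostly absent, but a few moved with the treatment. TRBC2, a T cell receptor constant gene, was higher in both fits, with an effect of 0.73 ± 0.07 at 8 h and 0.25 ± 0.07 at 4 h. The 14 T and NK cell markers summed to 68.8 to 72.7 CPM with copanlisib and 49.6 to 53.5 CPM with DMSO at 8 h, and to 51.5 to 61.3 and 49.3 to 57.8 CPM at 4 h. Most of the gap at 8 h came from TRBC2, with means of 42 and 25.4 CPM at 8 h and 33.5 and 28.1 CPM at 4 h. NKG7 was at 9.2 to 16.4 CPM and CD7 at 6.04 to 11.3 CPM over the 12 libraries. The 5 tested markers had a median difference of 0.19 with 12 libraries, -0.07 in the replicate 3 fit and -0.06 after GC correction. CD3D, CD3G and CD8B had no reads in any of the 12 libraries and 10 of the 14 stayed under 1 CPM. The keratin gene KRT18 had an effect of 0.46 ± 0.07 at 8 h and -0.05 ± 0.07 at 4 h, and the 13 stromal and epithelial markers summed to 94.2 to 97.9 CPM with copanlisib and 65.3 to 71.5 CPM with DMSO at 8 h, and to 64.8 to 80.6 and 62.8 to 69.9 CPM at 4 h. Of these, COL1A1 was at 14.3 to 27.6 CPM, KRT8 at 12.3 to 20.2 CPM and CDH1 at 6.06 to 14.7 CPM over the 12 libraries, and COL1A1 had a difference of 0.52 ± 0.15 (edgeR adjusted p = 0.037) that did not pass in the replicate 3 fit (0.30 ± 0.13, adjusted p = 0.23). LUM was at 0 and KRT19, COL1A2 and COL3A1 reached at most 0.0713, 0.0968 and 0.0713 CPM. The part of other cell types in these differences was not tested. The 12 myeloid markers summed to 104 to 106 CPM with copanlisib and 119 to 127 CPM with DMSO at 8 h, and to 91.2 to 118 and 98.2 to 108 CPM at 4 h, nearly all of it from VCAN at 85.2 to 119 CPM.

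FOXO targets had differences in both directions. Of 26 tested, 3 were higher and 3 lower with 12 libraries (5.5% and 5.4% of all genes), 3 and 2 in the replicate 3 fit, and 3 and 4 after GC correction, and their median effect was 0.30 at 8 h and 0.38 at 4 h (0.39 in the replicate 3 fit). YPEL3, a growth-restraining gene, was at 62.5, 58.2 and 58.3 CPM with copanlisib against 25.4, 25 and 30.1 CPM with DMSO at 8 h, and at 50.9, 48.3 and 58.8 CPM against 36.4, 33.4 and 36.1 CPM at 4 h. The groups were apart at both times and further at 8 h, with a difference of 0.58 ± 0.11 (edgeR adjusted p = 0.0084) and of 0.41 ± 0.10 in the replicate 3 fit. TSC22D3, a leucine zipper regulator also known as GILZ, had effects of 0.99 ± 0.05 at 8 h and 0.63 ± 0.05 at 4 h. KLF6 passed in both fits as well, at 0.14 ± 0.05 and -0.10 ± 0.05. SESN1, a sestrin that restrains mTORC1, went the other way: its effect was 0.04 ± 0.07 at 8 h and 0.64 ± 0.08 at 4 h.

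Genes of the ATF4 and amino acid response had a higher difference in part. Of 26 tested, 9 were higher and 1 lower with 12 libraries (5.5% and 5.4% of all genes), 4 and 1 in the replicate 3 fit, and 6 and 1 after GC correction. CHAC1, which breaks down glutathione, was at 4.27, 4.33 and 4.42 CPM with copanlisib against 5.93, 6.12 and 6.27 CPM with DMSO at 8 h, and at 4.62, 5.19 and 6.15 CPM against 20.4, 18.3 and 18.5 CPM at 4 h. Copanlisib cells stayed low throughout, while the DMSO cells were high at 4 h. Its difference was 1.35 ± 0.16 (edgeR adjusted p = 0.00071) and 1.13 ± 0.18 in the replicate 3 fit, and its effect at 12 h was again stronger, at -1.48 ± 0.11 against -0.49 ± 0.12 at 8 h.

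ATF4 itself was at 288, 304 and 299 CPM with copanlisib against 302, 301 and 299 CPM with DMSO at 8 h, and at 381, 406 and 406 CPM against 522, 505 and 543 CPM at 4 h. The groups overlapped at 8 h only. Its difference of 0.38 ± 0.06 (edgeR adjusted p = 0.0039) was 0.34 ± 0.06 in the replicate 3 fit but 0.18 ± 0.06 after GC correction, which ended the call (adjusted p = 0.054). The ATF4 partner CEBPB had a difference of 0.85 ± 0.18, also lost with GC correction (0.39 ± 0.14, adjusted p = 0.077). STC2, a secreted glycoprotein, had 0.61 ± 0.15 and kept it. MTHFD2, an enzyme of mitochondrial folate metabolism, had a lower difference of -0.25 ± 0.06, which was -0.11 ± 0.05 after GC correction (adjusted p = 0.22).

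Aminoacyl-tRNA synthetases, which load amino acids onto tRNAs, had the largest share of members with a lower difference among the 31 lists, with 12 libraries. Of 20 tested, 11 were lower and none higher with 12 libraries, 6 and none in the replicate 3 fit, and 13 and none after GC correction, against 5.4% of all genes with 12 libraries. The median effect was -0.43 at 8 h and -0.24 at 4 h (-0.23 in the replicate 3 fit). FARSB, a subunit of phenylalanyl-tRNA synthetase, was at 68.2, 73 and 73.9 CPM with copanlisib against 124, 136 and 131 CPM with DMSO at 8 h, and at 115, 114 and 98.7 CPM against 136, 136 and 129 CPM at 4 h. DMSO cells were alike at both times and copanlisib cells were lower at 8 h. The difference was -0.57 ± 0.09 (edgeR adjusted p = 0.0028) and -0.43 ± 0.07 in the replicate 3 fit.

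EPRS1, IARS1, GARS1 and WARS1, the synthetases of glutamate with proline, isoleucine, glycine and tryptophan, passed in both fits as well, with differences of -0.37 ± 0.07, -0.37 ± 0.08, -0.36 ± 0.07 and -0.31 ± 0.06, or -0.27 ± 0.06, -0.25 ± 0.06, -0.27 ± 0.07 and -0.29 ± 0.05 in the replicate 3 fit. At 12 h their effects were -0.41 ± 0.05, -0.62 ± 0.05, -0.71 ± 0.06 and -0.48 ± 0.04. Many synthetase genes are also ATF4 targets. The synthetases here and MTHFD2 had a lower difference. ATF4, CHAC1, CEBPB and STC2 had a higher one, which ATF4 and CEBPB lost with GC correction. The ATF4 list had a median difference of 0.24 with 12 libraries, and of 0.05 both in the replicate 3 fit and after GC correction. The part of ATF4 in the synthetase values was not tested.

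**Figure D4:**
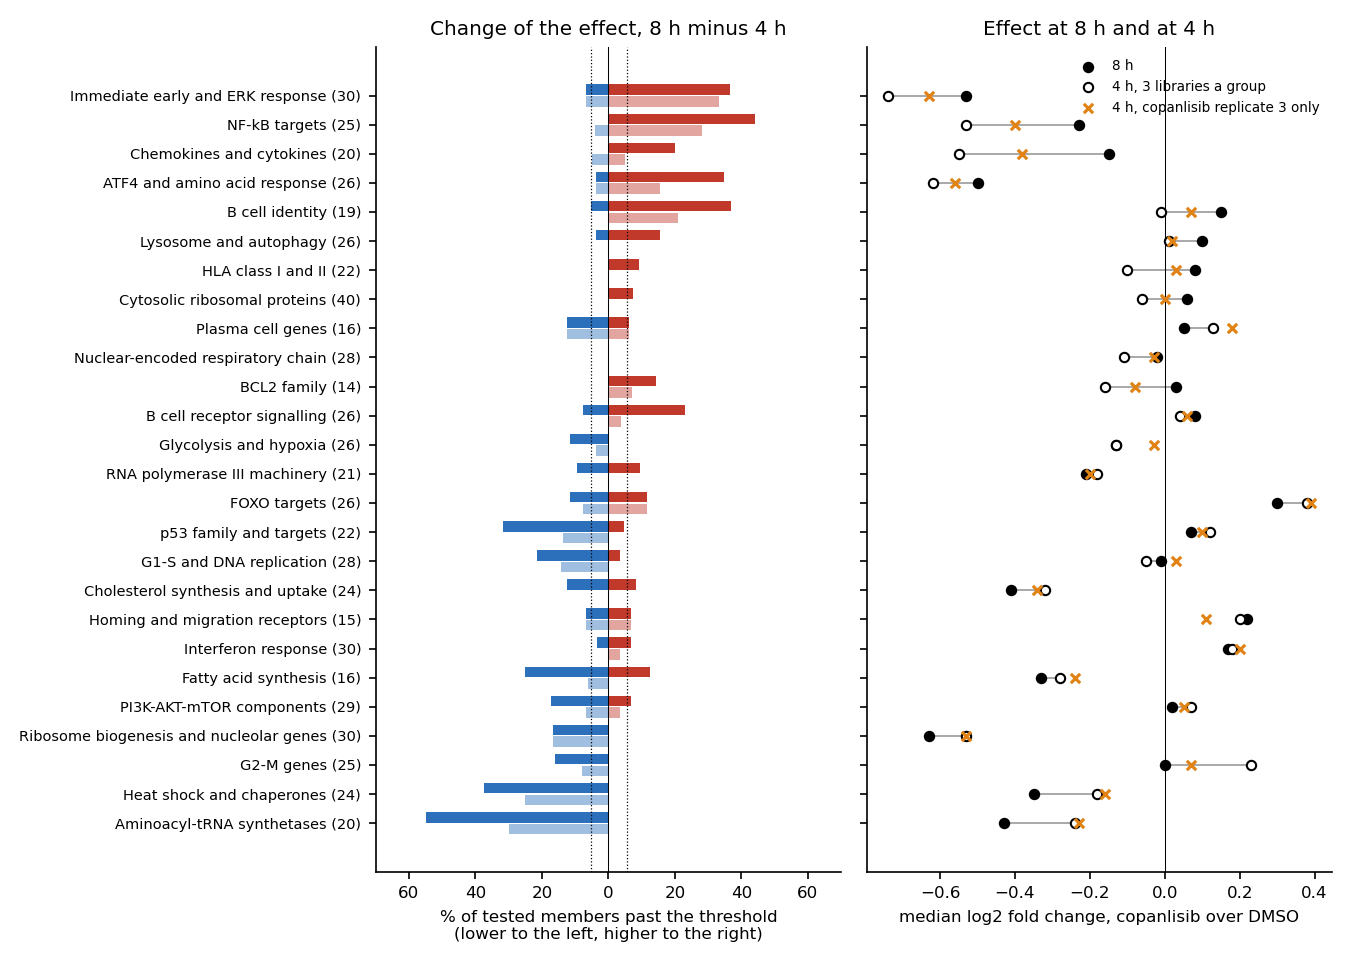
Left, the percentage of tested members (number in brackets) with a higher or lower difference, for each gene list with 14 or more tested members, in the 12-library fit (dark bars) and the replicate 3 fit (pale bars), with dotted lines at the shares over all genes with 12 libraries, 5.5% and 5.4%. Right, the median log2 fold change of copanlisib over DMSO of each list at 8 h and at 4 h. Immediate early genes and NF-kB targets run to the right (11 of 30 and 11 of 25 higher), and aminoacyl-tRNA synthetases and chaperones to the left (11 of 20 and 9 of 24 lower).

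Chaperones also had a lower difference. Of 24 tested, 9 were lower and none higher with 12 libraries (5.4% and 5.5% of all genes), 6 and none in the replicate 3 fit, and 10 and none after GC correction. The median effect was -0.35 at 8 h and -0.18 at 4 h (-0.16 in the replicate 3 fit), and 13 of the 24 rose with time in DMSO cells (12.4% of all genes). The 6 genes that passed in both fits were HSPA8, HSPD1, HSPH1, HSP90AA1, HSP90AB1 and CCT5, a subunit of the chaperonin TRiC. A heat shock element lies in a promoter of 4 of these 6, printed above, and of 2 of the 16 others with an entry, CHORDC1 and HSPA6. Only exact matches within 250 bases were counted, and a link of the element with the calls was not tested.

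HSPA8 was at 1440, 1530 and 1470 CPM with copanlisib against 2120, 2300 and 2200 CPM with DMSO at 8 h, and at 1240, 1250 and 1170 CPM against 1420, 1400 and 1390 CPM at 4 h. Both treatments were higher at 8 h, DMSO by more. The difference was -0.38 ± 0.06 (edgeR adjusted p = 0.0039) and -0.33 ± 0.06 in the replicate 3 fit. HSPH1, a co-chaperone of the HSP110 family, was at 403, 418 and 429 CPM against 514, 563 and 543 CPM at 8 h and at 352, 339 and 294 CPM against 317, 335 and 319 CPM at 4 h, a difference of -0.39 ± 0.08 (edgeR adjusted p = 0.012) that was -0.24 ± 0.06 in the replicate 3 fit. HSP90AA1, with effects of -0.34 ± 0.06 at 8 h and 0.02 ± 0.06 at 4 h, and HSP90AB1, with -0.32 ± 0.04 and -0.08 ± 0.04, were likewise reduced at 8 h only with 12 libraries, whereas HSPD1 was reduced at both times (-0.45 ± 0.04 and -0.13 ± 0.04). In the replicate 3 fit HSPH1, HSP90AA1 and HSP90AB1 were also reduced at 4 h (edgeR adjusted p = 0.049, 0.021 and 0.048). Multimapping reads do not enter the counts, so genes with near-identical copies, among them the chaperones, NPM1, LDHA, TRBC2 and ribosomal protein genes, are undercounted and their values uncertain.

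Ribosome biogenesis genes were reduced at both times, and a few of them more at 8 h. Of 30 tested, 5 were lower and none higher (5.4% and 5.5% of all genes), with the same counts in the replicate 3 fit and 10 and none after GC correction. They were UTP20, NPM1, DDX21, NCL and NOLC1. DDX21, a nucleolar RNA helicase, was at 239, 258 and 263 CPM with copanlisib against 507, 527 and 527 CPM with DMSO at 8 h, and at 418, 408 and 366 CPM against 644, 629 and 598 CPM at 4 h. The difference was -0.38 ± 0.07 (edgeR adjusted p = 0.0081) and -0.28 ± 0.06 in the replicate 3 fit. NPM1, which encodes nucleophosmin, was reduced at 8 h only, at -0.32 ± 0.06 against 0.06 ± 0.06 at 4 h, where the replicate 3 fit gave -0.12 ± 0.04 (edgeR adjusted p = 0.055).

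Cell cycle genes had a lower difference in part. Of 28 tested genes of G1-S and DNA replication, 6 were lower and 1 higher with 12 libraries (5.4% and 5.5% of all genes) and 4 and none in the replicate 3 fit, namely CDK6, CDC6, MCM6 and MCM4. CDK6, a G1 kinase, had an effect of -0.49 ± 0.05 at 8 h and -0.06 ± 0.05 at 4 h, which was -0.18 ± 0.05 in the replicate 3 fit. CDC6 and MCM6, which license replication origins, had effects of -0.33 ± 0.06 and -0.20 ± 0.05 at 8 h and 0.06 ± 0.06 and 0.14 ± 0.05 at 4 h. Among 25 G2-M genes, 4 were lower and none higher with 12 libraries (5.4% and 5.5% of all genes). After GC correction 7 G1-S genes and 5 G2-M genes were lower and none higher (4.5% and 2.76% of all genes). The G2-M list has a median GC content of 43.2%, and its median difference was -0.17 with 12 libraries and -0.07 after GC correction. HMMR and BUB1B of the mitotic spindle passed in both fits. Their effects were -0.13 ± 0.10 and -0.04 ± 0.07 at 8 h and 0.54 ± 0.10 and 0.43 ± 0.07 at 4 h. In the replicate 3 fit the effects at 4 h were 0.28 ± 0.09 and 0.25 ± 0.07, and the median of the G2-M list at 4 h was 0.07, against 0.23 with 12 libraries.

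Genes raised at 4 h and raised less, or no longer called, at 8 h included TP63 of the p53 family, the p53 target RRM2B and the PI3K subunit gene PIK3CG. Of 22 tested p53 family members and targets, 7 were lower and 1 higher with 12 libraries (5.4% and 5.5% of all genes), 3 and none in the replicate 3 fit (1.61% and 1.02%), and 5 and 1 after GC correction (4.5% and 2.76%). TP63, a p53 family factor, was at 64.6, 67.3 and 65.9 CPM with copanlisib against 43.1, 41.7 and 39.7 CPM with DMSO at 8 h, and at 51.8, 58.4 and 48.1 CPM against 21.9, 22.5 and 23.1 CPM at 4 h. Both treatments were higher at 8 h, and the ratio between them was smaller. The difference was -0.56 ± 0.10 (edgeR adjusted p = 0.0048) and -0.44 ± 0.09 in the replicate 3 fit. RRM2B, the p53-induced ribonucleotide reductase subunit, had an effect of 0.08 ± 0.06 at 8 h and 0.54 ± 0.06 at 4 h. PIK3CG, the gamma catalytic subunit of PI3K, was at 16.5, 16 and 16.2 CPM against 11, 9.75 and 10.5 CPM at 8 h and at 18.8, 17.1 and 17.2 CPM against 7.62, 7.6 and 7.68 CPM at 4 h, a difference of -0.57 ± 0.11 (edgeR adjusted p = 0.0089), or -0.54 ± 0.14 in the replicate 3 fit. Of 29 tested PI3K-AKT-mTOR components, 5 were lower and 2 higher with 12 libraries (5.4% and 5.5% of all genes, so that the higher share is near that of all genes), and 2 and 1 in the replicate 3 fit.

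The lowest difference among the named genes was that of ANK2, which encodes ankyrin-B, an adaptor between membrane proteins and the cytoskeleton. It was at 11, 10.1 and 9.98 CPM with copanlisib against 23.6, 24.5 and 27.3 CPM with DMSO at 8 h, and at 18.7, 17.5 and 17 CPM against 17.6, 18.8 and 19.7 CPM at 4 h. The groups overlapped at 4 h and were far apart at 8 h. Its difference was -1.19 ± 0.11 (edgeR adjusted p = 8.9e-05), -1.14 ± 0.13 in the replicate 3 fit and -1.13 ± 0.10 after GC correction, and the effect at 12 h was -1.12 ± 0.10. SCD, which desaturates fatty acids, had an effect of -0.82 ± 0.04 at 8 h and -0.44 ± 0.04 at 4 h, and the lactate dehydrogenase gene LDHA had -0.46 ± 0.05 and -0.09 ± 0.05, the last of which was -0.17 ± 0.05 in the replicate 3 fit.

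**Figure D5:**
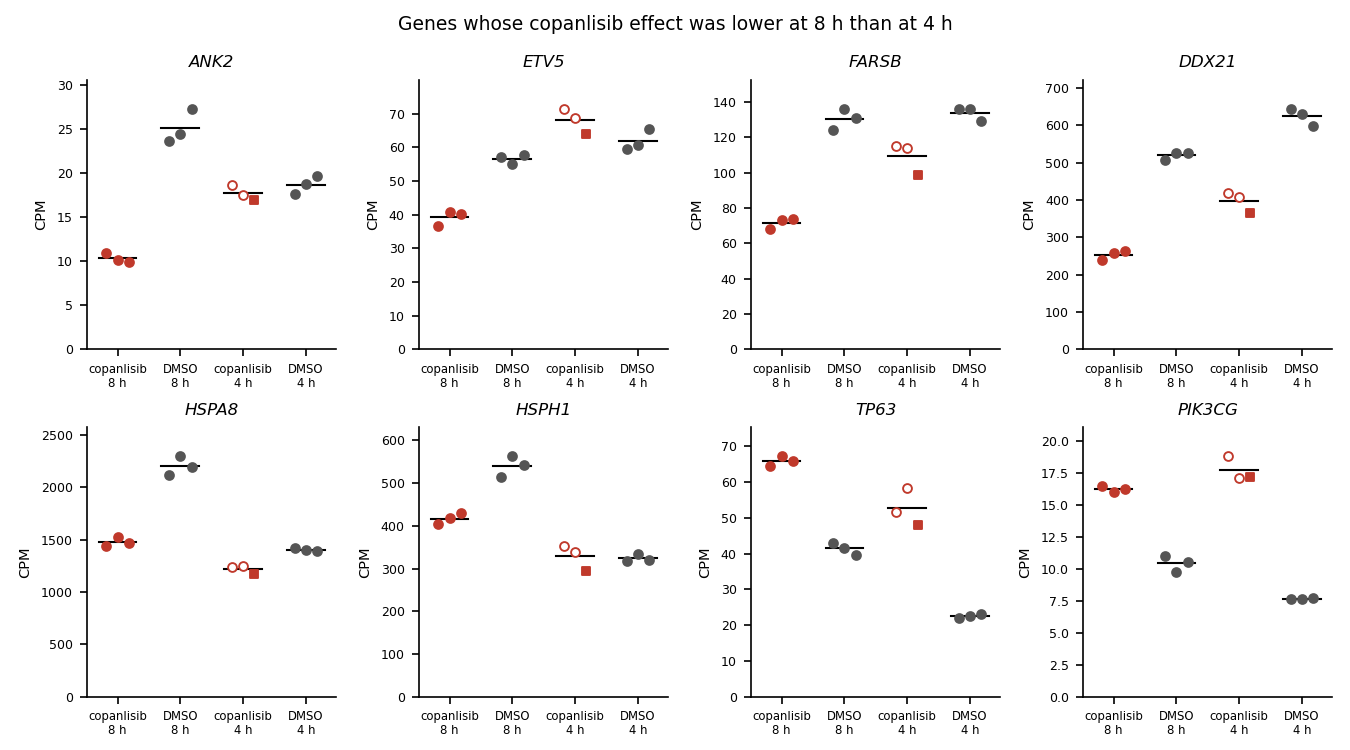
CPM per library for 8 genes with a lower difference in both fits, with copanlisib in red, DMSO in grey, and a bar at the mean of 3 libraries. Open circles are copanlisib 4 h replicates 1 and 2 and the square is replicate 3. In ANK2 the groups overlap at 4 h, whereas at 8 h copanlisib lies at 9.98 to 11 CPM and DMSO at 23.6 to 27.3 CPM.

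Other strong responses to copanlisib showed no call in the difference. The 95% intervals given here are from the 12-library fit and are not adjusted for the number of genes. They reflect the spread among these libraries and allow for no shift by the GC trend of copanlisib 4 h replicates 1 and 2. Of the genes in this paragraph, only FASN had a value in the replicate 3 fit outside its interval. XCL1, the chemokine lymphotactin, had effects of -2.23 ± 0.07 at 8 h and -2.12 ± 0.07 at 4 h, a difference of -0.11 (95% interval -0.31 to 0.09). The immediate early factors EGR1 and EGR3 had differences of -0.03 (-0.32 to 0.26) and 0.14 (-0.14 to 0.42), unlike NR4A1 and the AP-1 genes. MYC, a factor of cell growth, had 0.02 (-0.12 to 0.16). TXNIP, an inhibitor of glucose uptake, had 0.04 (-0.12 to 0.21), and MCL1, a survival factor, had 0.05 (-0.09 to 0.19). For other genes the unadjusted interval left out 0 although the adjusted p missed the threshold. These were the chemokine gene CCL3 at 0.47 (0.11 to 0.83), the PI3K inhibitor gene PIK3IP1 at 0.39 (0.05 to 0.72), the chemokine receptor gene CXCR4 at -0.20 (-0.37 to -0.04) and HMGCS1 of cholesterol synthesis at -0.18 (-0.33 to -0.04). The chemokine gene CCL4 had a wide interval, at 0.74 (-0.04 to 1.52). For FASN, the fatty acid synthase gene, the interval of -0.05 to 0.68 was wide, and the difference was 0.32 ± 0.17 with 12 libraries and -0.12 ± 0.06 in the replicate 3 fit, neither past the threshold. XCL1, CCL3 and CCL4 have near-identical copies, so their counts are uncertain.

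Most calls of the 12-library fit were lost in the replicate 3 fit. The largest among well-expressed coding genes were HES7, TPGS1, ANTKMT and ADAP1 with a higher difference, at 1.04 ± 0.25, 1.03 ± 0.28, 0.92 ± 0.22 and 0.91 ± 0.25, and IFIT1, EYA1, TNFSF10 and ZNF44 with a lower one, at -0.85 ± 0.20, -0.78 ± 0.18, -0.76 ± 0.18 and -0.69 ± 0.17. In the replicate 3 fit they were at 0.50, 0.36, 0.40 and 0.38, and at -0.59, -0.47, -0.46 and -0.44, with adjusted p between 0.078 and 0.25. The 4 with a higher difference have a GC content of 61.7% to 72.7% and the 4 with a lower one of 40.2% to 43.3%.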

How the data were processed

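RNA from HAIR-M cells was sequenced in 18 libraries, and the 12 of 4 h and 8 h are used here. The authors deposited raw read counts per gene, 1 file per library, with 60483 gene identifiers. Per the submitters' processing notes, CASAVA 1.7 and STAR 2.5.2b were used, with the genome build hg38. No annotation version is given in the sources used here. The strand column that held 94.3% to 95.3% of the stranded reads was used as the count, and unmapped, multimapping, no-feature and ambiguous reads stayed out of library sizes and tests (multimapping 9.21% to 10.1%, no feature 10.4% to 13.0%, ambiguous 2.04% to 2.45%). Of 33934 genes with a read, 16018 passed filterByExpr, with 99.87% or more of each library's gene reads. A name table matched 56321 identifiers, GENCODE 29 another 432, and 3730 stayed unnamed. GC content came from GENCODE 29.

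Tests used R 4.3.3 and edgeR 4.0.16 (TMM, glmQLFit, glmQLFTest, two-sided, Benjamini-Hochberg over all genes tested), with limma 3.58.1 and DESeq2 1.42.0 as alternatives. One mean per group was fitted to the 12 libraries, and the common biological coefficient of variation was 0.0578. SE values of log2 changes were taken from the F statistic (absolute log2 value over root F). The 12 h effects come from a fit of all 18 libraries. GC correction is a lowess offset per library (span 0.3). Replicate numbers were checked as pairs by the deviations of libraries from their group means. Same-numbered libraries correlated between -0.0909 and 0.11 (1 of 18 above 0.1), and differently numbered ones between -0.0889 and 0.0915. No pairing by number was seen, but these values cannot exclude one. Replicates of a group differed by a chi-square of at least 1.52 per gene, so none was counted as a repeat.

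Members, gene lists and tests were chosen with earlier results of these data known. Named genes are the 12 highest and 12 lowest differences among coding genes past the threshold in both fits whose average log2 CPM reached 3, the 4 highest and 4 lowest lost in the replicate 3 fit, up to 3 members of each of 31 lists with the smallest adjusted p, and 20 fixed genes. Other list members past the threshold in both fits were named after their values were seen.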

Additional observations from a re-analysis of the deposited data

Results flagged for a closer look

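The 24 genes below have effects of copanlisib that differed between 8 h and 4 h by the test of the difference itself, with 12 libraries and also with replicate 3 as the only copanlisib library at 4 h. They were chosen by the size of that difference, so their values are a description. The log2 difference, 8 h minus 4 h, was 1.35 for CHAC1, 1.09 for LTB, 1.02 for NR4A1, 1.0 for KREMEN2, a receptor of Dickkopf proteins in the Wnt pathway, and 0.98 for both DUSP2 and GNB1L. It was 0.91 for COL7A1, which encodes type VII collagen, 0.9 for SLC43A2, an amino acid transporter, 0.85 for both CEBPB and PIM3, 0.84 for JUNB and 0.83 for SOCS1.

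Lower differences were -1.19 for ANK2, -0.86 for FAM111B, a protease, -0.75 for ZFHX4, a zinc finger homeobox factor, -0.72 for FANCM, a DNA translocase of the Fanconi pathway, and -0.69 for RGL1, a Ral exchange factor, and for SEMA3A, a semaphorin. They were -0.67 for ETV5 and for the splicing regulator MBNL2, -0.66 for HMMR, -0.65 for ARMT1 and for TFEC, a factor of the MiT family, and -0.63 for ZC3HAV1, an antiviral RNA-binding protein. With replicate 3 only, KREMEN2 was at 0.47, GNB1L at 0.59, DUSP2 at 0.51, PIM3 at 0.39, SOCS1 at 0.34, HMMR at -0.41 and FAM111B at -0.57. CEBPB lost its call with GC correction, SOCS1 without copanlisib 8 h replicate 1 or 4 h replicate 2, FAM111B without copanlisib 4 h replicate 2, and RGL1 without any of 4 libraries in turn. With the replicate block and replicate 3 only, HMMR and MBNL2 lost theirs. In the fit with all libraries of 4 h and 8 h, 8 of the 24 no longer passed at an adjusted p under 0.01. At an absolute log2 value of at least 1 in that fit, 20 did not pass. The replicate 3 fit was not held to these limits.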

How the results depend on the processing

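The change of the effect was called in 881 genes as higher and 865 as lower with 12 libraries. Those counts became 172 and 271 with replicate 3 as the only copanlisib 4 h library, 3309 and 2858 with limma-voom sample weights (0.737, 2.05 and 0.157 for copanlisib 4 h replicates 1, 2 and 3), and 1497 and 1589 with all 18 libraries. They were 1583 higher with no filter on low counts, 442 higher and 721 lower with GC correction, 95 and 98 at an adjusted p under 0.01, and 58 and 14 at an absolute log2 value of at least 1. DESeq2 size factors gave 843 and 1122, DESeq2 941 and 1213, limma-voom 1123 and 958, and counts without strand 828 and 861. Leaving out 1 library gave 176 to 3050 higher and 197 to 3274 lower. Replicate numbers did not pair the libraries: a replicate block gave 968 and 806, 440 higher and 668 lower with GC correction, and 135 and 200 with replicate 3 only.

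The effect at 4 h (2401 higher, 3134 lower) had 1591 higher with replicate 3 only, 1363 and 1909 with the replicate block and replicate 3 only, 1416 higher at adjusted p under 0.01, and 142 and 180 at a log2 value of at least 1. Leaving out 1 library gave 1769 to 3784 and 2362 to 4069. The effect at 8 h (2085 and 2639) had 3305 higher with sample weights, 1154 higher at 0.01, and 149 and 72 at the log2 limit, and leaving out 1 library gave 1416 to 3050 and 2134 to 3579. Copanlisib cells at 8 h against 4 h (3052 and 2884) had 1424 higher with replicate 3 only, 4614 higher with sample weights, 1102 and 1904 with the replicate block and replicate 3 only, 1741 higher at 0.01, and 169 and 72 at the log2 limit, and leaving out 1 library gave 1978 to 3949 and 2202 to 4201. DMSO cells at 8 h against 4 h (1979 and 2226) had 1122 and 1350 at 0.01 and 121 and 130 at the log2 limit, and leaving out 1 library gave 1305 to 2788 and 1746 to 3291. Among the genes called in both fits (156 and 232), 92 and 98 passed at 0.01 and 10 and 1 at the log2 limit. These limits were set on the fit with all libraries of 4 h and 8 h and not on the replicate 3 fit. With 1 library left out of the former fit, 132 to 156 and 171 to 232 were kept.

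Recomputed values were the differences and effects of 118 named genes, and the change of copanlisib cells with time for the 24 of them with the highest and lowest differences. Of those that passed the threshold in one of the settings compared, the following changed sign, and the cause was not tested. In copanlisib cells at 8 h against 4 h, DUSP2 was at -0.33 with replicate 3 only and -0.31 with the replicate block added, PIM3 at 0.14 with sample weights and between -0.24 (without copanlisib 4 h replicate 1) and 0.17 (without replicate 3) with 1 library left out, and JUNB at -0.13 with GC correction, with or without the block. In the effect at 4 h, BRF1 was at 0 after rounding with GC correction with or without the block, IFI6 at 0.04 with the replicate block and replicate 3 only, HSPH1 at -0.14 and -0.15 and VCAN at -0.22 and -0.22 with replicate 3 only, without and with the block. Of the differences of 118 named genes, 44 lost their call with replicate 3 only and 25 with GC correction. With replicate 3 only, the change of copanlisib cells with time was also -0.24 for FASN and -0.43 for SREBF1, against 0.20 and 0.02 with 12 libraries.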
